A study of Homo sapiens with 12 samples.

Results

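The 10 genes described here encode semaphorins, plexins and a neuropilin. They are the secreted ligands SEMA3A, SEMA3C and SEMA3F, the membrane-bound ligands SEMA4B and SEMA4D, the plexin receptors PLXNA1, PLXNA2, PLXNB1 and PLXNB2, and the co-receptor NRP1. They were taken by symbol, 10 of 56832 genes with an RNA level in 12 libraries of DU145, an established human prostate cancer cell line. The knockout lines were 3 clones: sgRAC1 clone 1, made with the guide sgRAC1_1, and sgRAC1 clones 2 and 3, made with the guide sgRAC1_2. They were set against 3 RAC1-positive lines: sgNTC clones 1 and 2, which had gone through the same procedure with a non-targeting guide, and the parental DU145 line. Guide RNA and Cas9 were delivered as a complex and single cells were grown into clones, so each edited line is 1 clone and guide sgRAC1_1 is represented by 1 clone. All lines grew in RPMI with 10% fetal bovine serum, and each had 2 libraries, 1 in each of 2 batches. RAC1 encodes a small GTPase that controls the actin skeleton at the cell edge, and the comparison asks how RNA levels differ where it has been knocked out.

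Semaphorins are guidance cues that make cells withdraw, turn or spread. Class 3 semaphorins are secreted and mostly bind a neuropilin, which has almost no signalling tail of its own, joined to an A-type plexin. Class 4 semaphorins sit in the membrane and bind mainly B-type plexins. Plexins carry in their cytoplasmic part a GTPase-activating domain for Rap proteins and a segment that binds small GTPases, active RAC1 among them, so RAC1 is both a direct partner of plexins and a downstream element of their signal. In epithelial tumours, prostate cancer included, these genes are studied for their part in migration, invasion and growth signalling.

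RAC1 itself fell to 46.2 ± 9.14 TPM in the knockout lines, against 172 ± 4.60 TPM in lines that kept it (SD over lines, n = 3 each). TPM, the transcript abundance scaled to the same total in every library, is divided by transcript length, so levels of different genes can be compared. RAC1 was the only one of 17367 tested genes past an adjusted p of 0.05 between the genotypes (limma on line means, adjusted p = 0.0467). The count moved with the setting: 21 genes (0.121%) passed without sgNTC clone 2 replicate 1, and over 26 settings on line means 0 to 33 passed, with 0 in 18 of them. With no level filter RAC1 itself had an adjusted p of 0.172. Sequencing depth is unknown because TPM keep none. A single library stood apart: sgNTC clone 2 replicate 1 had 13608 genes above 0, against 20470 to 25156 elsewhere, and a median correlation with the rest of 0.872, against 0.936 to 0.954. That library listed 5 of the 10 genes at 0 (SEMA3A, SEMA3F, PLXNA2, PLXNB1 and PLXNB2), where every other library listed 0 or 1 of them at 0. All 4 epithelial markers passed the level filter, and their summed level was 292 to 642 TPM in knockout libraries and 233 to 700 TPM in RAC1-positive libraries. Of the prostate luminal markers, KLK3 and TMPRSS2 were at 0 in every library. None of the neural, fibroblast or endothelial markers passed the filter.

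SEMA3C was the most abundant of the 10 genes, at 61.3 ± 16.1 TPM over the 6 lines (SD), followed by NRP1 at 41.6 ± 9.70 TPM and SEMA4B at 16.9 ± 3.41 TPM. The other 7 averaged 1.51 TPM or less. In order these were PLXNB2 at 1.51 TPM, SEMA3A at 1.39 TPM, SEMA4D at 1.05 TPM, PLXNA1 at 0.538 TPM, PLXNA2 at 0.272 TPM, SEMA3F at 0.141 TPM and PLXNB1 at 0.115 TPM. Among all 31 semaphorin, plexin and neuropilin genes, the 5 semaphorins described here held 92.8% of the TPM of 20 semaphorins, and NRP1 held nearly all the neuropilin TPM. Over the 6 lines the ranges of SEMA3C (32.8 to 82.7 TPM) and NRP1 (28.6 to 55.3 TPM) overlapped, that of SEMA4B (13.2 to 22.2 TPM) lay apart below both, and the other 7 lay below 3.10 TPM. The 4 plexins held 60.5% of the TPM of 9 plexins, whose sum was 4.21 ± 0.865 TPM in knockout lines and 3.83 ± 0.389 TPM in RAC1-positive lines. In each of the 6 lines the summed semaphorin TPM (63.0 to 107) and the summed neuropilin TPM (28.7 to 55.3) lay above the summed plexin TPM (3.46 to 5.20).

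**Figure D1:**
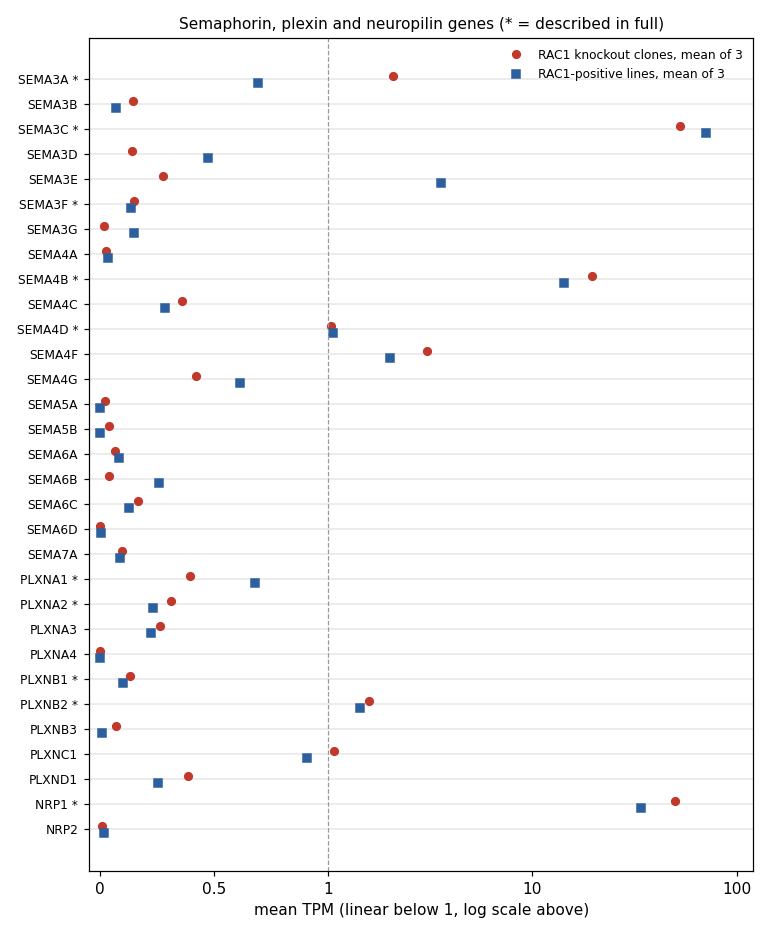
Mean TPM of 31 semaphorin, plexin and neuropilin genes (linear axis below 1 TPM, log axis above), with the mean of 3 knockout lines as a circle, that of 3 RAC1-positive lines as a square, and the 10 genes described marked by asterisks. SEMA3C, NRP1 and SEMA4B stand above all other genes of the family in both genotypes.

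Between the genotypes, none of the 6 genes that reached a mean of 1 TPM in either genotype passed the test on line means (limma, adjusted p from 0.232 to 0.982), where 0.00576% of all tested genes did. NRP1, SEMA3A and SEMA4B had an unadjusted p under 0.05 (limma), 3 of 6, where 13.0% of all tested genes did. In the same 3 genes each knockout line mean lay above each RAC1-positive line mean, which held for 11.6% of tested genes. In 0 of the 6 did each lie below, which held for 8.96%, so 20.5% of tested genes were apart in either direction. SEMA3A had passed the level filter only through the knockout lines, where it was high, and without it both counts are 2 of 5. The median log2 difference over the 6 tested genes was 0.31, or 0.18 without SEMA3A, and that over all tested genes 0.02. Over all 10 genes, 4 of them below the level filter, it was 0.06. The authors' deposited table tested 8 of the 10 genes and has 3 past an adjusted p of 0.05, the same NRP1, SEMA3A and SEMA4B, all higher in knockout cells. Of its 15140 genes 9.74% are past that threshold, 5.68% higher and 4.06% lower. In bulk RNA, a change in the share of cells of a kind and a change in RNA per cell cannot be told apart. The other 4 genes, SEMA3F, PLXNA1, PLXNA2 and PLXNB1, stayed below 1 TPM in both genotypes. Means of some markers also differed between the genotypes, though none of those named below passed the test on line means. The epithelial cadherin CDH1 averaged 13.5 ± 4.13 TPM in knockout lines and 3.98 ± 1.51 TPM in RAC1-positive lines (SD, n = 3, limma on line means, adjusted p = 0.156). Its libraries did not overlap between the genotypes, which held for 2.86% of tested genes in either direction. The epithelial adhesion gene EPCAM averaged 43.8 ± 6.72 TPM in knockout lines and 24.2 ± 2.10 TPM in RAC1-positive lines (limma adjusted p = 0.150). Of the keratins, KRT18 averaged 129 ± 54.3 TPM in knockout lines and 236 ± 124 TPM in RAC1-positive lines, and KRT8 238 ± 64.1 TPM in knockout lines and 201 ± 35.8 TPM in RAC1-positive lines (limma adjusted p = 0.488 and 0.677). The monocyte marker CD14 averaged 1.79 ± 1.28 TPM in knockout lines and 0.440 ± 0.238 TPM in RAC1-positive lines (limma adjusted p = 0.367). It passed the level filter only through the knockout lines and was highest in sgRAC1 clone 3, at 4.23 and 2.29 TPM. The 4 immune markers summed to 0.726 to 4.23 TPM per knockout library and to 0 to 1.08 TPM per RAC1-positive library, with PTPRC and CD3E at 0 in all 12. The part of these markers in the results was not tested.

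**Figure D2:**
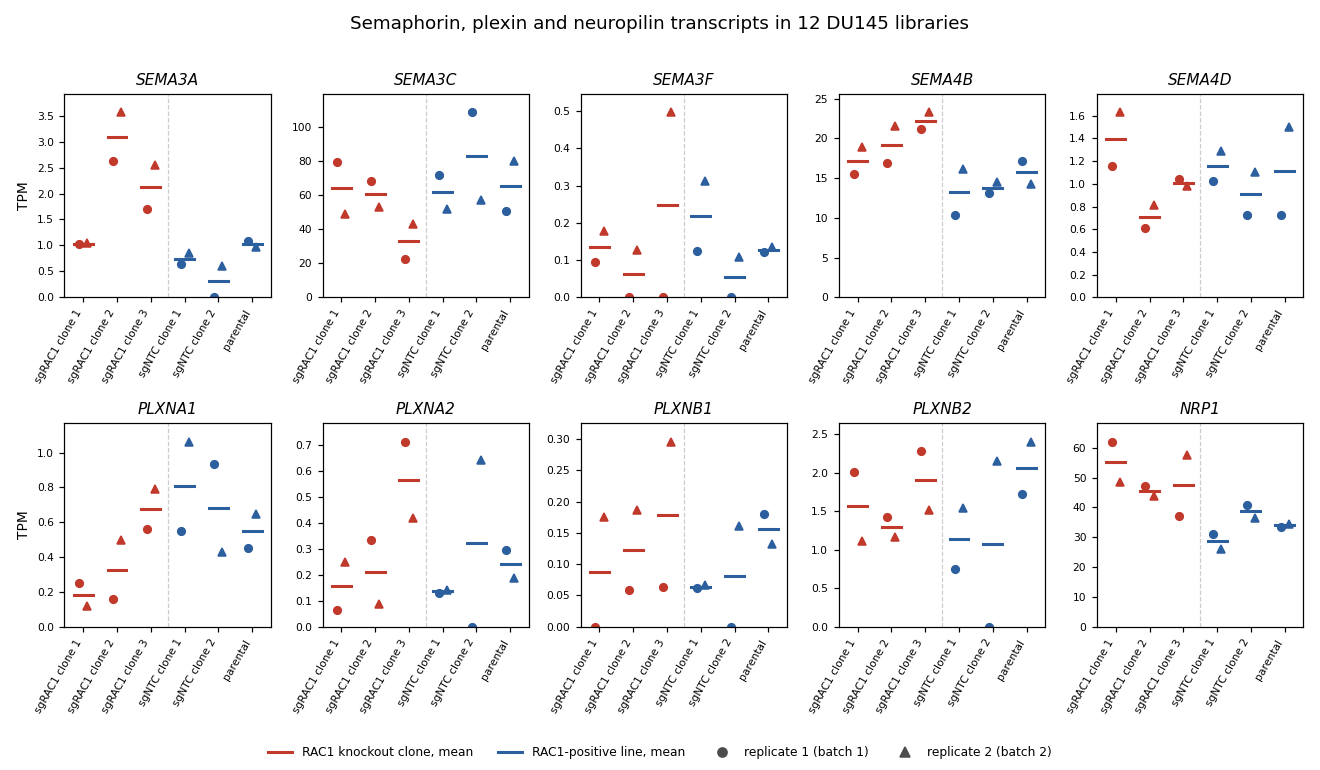
Level in TPM of each of the 10 genes in each library, knockout lines left of RAC1-positive lines, with 2 points per line, 1 for each batch, and a bar for the line mean. The knockout line means of SEMA3A, SEMA4B and NRP1 lie above all RAC1-positive line means, and those of the other genes overlap.

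SEMA3A, the secreted ligand best known for collapsing nerve growth cones through neuropilin and A-type plexins, had 1.02 and 1.05 TPM in sgRAC1 clone 1, 2.63 and 3.56 TPM in sgRAC1 clone 2 and 1.70 and 2.56 TPM in sgRAC1 clone 3. It had 0.643 and 0.850 TPM in sgNTC clone 1, 0 and 0.612 TPM in sgNTC clone 2, and 1.09 and 0.965 TPM in the parental line. Clones 2 and 3 lay above every RAC1-positive library, while clone 1 lay at the level of the parental line. The mean was 2.09 ± 1.03 TPM in knockout lines and 0.693 ± 0.363 TPM in RAC1-positive lines (SD, n = 3), a ratio of 3.01. The difference of line means in log2(TPM + 1), a scale that understates changes of low genes, was 0.84 (SE 0.33, limma adjusted p = 0.355). SEMA3A passed the level filter only through its knockout lines. The authors' deposited table gives it a log2 fold change of 1.33 (SE 0.359, adjusted p = 0.00454) at a mean of 22.5 normalised counts. In order of line means, clone 2 was highest and sgNTC clone 2 lowest, 10.1-fold apart, or 5.05-fold without the library that lists SEMA3A at 0. In 4 of 5 neighbouring pairs of lines the libraries did not overlap, while those of clone 1 and the parental line did. Clone 2 cleared clone 3 only by 2.63 against 2.56 TPM. How often pairs are apart over all genes was not computed, so these counts, here and for the genes below, only describe the order. Within batches the log2 difference was 0.84 in batch 1 and 0.83 in batch 2.

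SEMA3C, a secreted ligand studied as a growth signal in prostate cancer, had 79.4 and 48.6 TPM in sgRAC1 clone 1, 68.1 and 53.2 TPM in sgRAC1 clone 2, and 22.7 and 42.8 TPM in sgRAC1 clone 3. RAC1-positive libraries had 72.0 and 52.1 TPM in sgNTC clone 1, 109 and 56.9 TPM in sgNTC clone 2, and 50.8 and 79.8 TPM in the parental line. Clone 3 held the lowest library of all 12, and clones 1 and 2 overlapped the RAC1-positive libraries. The means were 52.5 ± 17.2 TPM in knockout lines and 70.0 ± 11.1 TPM in RAC1-positive lines (SD, n = 3), with a log2 difference of -0.455 (SE 0.26, limma adjusted p = 0.507). Of 5 neighbouring pairs in the order of line means only clone 2 over clone 3 had libraries apart. The authors' deposited table gives SEMA3C a log2 fold change of -0.39 with an adjusted p of 0.456.

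SEMA4B, a membrane-bound class 4 ligand at chr15:90160604-90229679 on the plus strand (GENCODE release 29, GRCh38, as for all genes below), had 15.5 and 18.8 TPM in sgRAC1 clone 1, 16.9 and 21.5 TPM in sgRAC1 clone 2, and 21.2 and 23.3 TPM in sgRAC1 clone 3. It had 10.4 and 16.1 TPM in sgNTC clone 1, 13.1 and 14.4 TPM in sgNTC clone 2, and 17.2 and 14.2 TPM in the parental line. Libraries of the genotypes overlapped, in that clone 1 replicate 1 and clone 2 replicate 1 lay below the highest RAC1-positive library. The means were 19.5 ± 2.54 TPM in knockout lines and 14.2 ± 1.29 TPM in RAC1-positive lines (SD, n = 3), a ratio of 1.37 and a log2 difference of 0.43 (SE 0.14, limma adjusted p = 0.285). In the order of line means 0 of 5 neighbouring pairs had libraries apart, and the highest line, clone 3, lay 1.68-fold above the lowest, sgNTC clone 1. The authors' deposited table gives a log2 fold change of 0.41 with an adjusted p of 0.0433. Another gene, RPS12P26, a pseudogene annotated on the same strand inside SEMA4B, averaged 7.10 ± 3.16 TPM in knockout lines and 5.94 ± 3.28 TPM in RAC1-positive lines, and how reads were shared between them is not stated.

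SEMA3C and SEMA4B are the most abundant ligands, and promoter windows of these are printed to show how base composition varies between the starts of a gene. They are the 250 bases before a transcription start in RefSeq (GRCh38.p14), 5′ to 3′ on the gene's strand, with each GC box (GGGCGG, or CCGCCC on the other strand) in capitals. SEMA3C has 2 starts in RefSeq, and the window of the first, chr7:80922390-80922639 on the minus strand, has 36.4% G and C bases, 2 CpG and 0 GC boxes.
SEMA3C first start: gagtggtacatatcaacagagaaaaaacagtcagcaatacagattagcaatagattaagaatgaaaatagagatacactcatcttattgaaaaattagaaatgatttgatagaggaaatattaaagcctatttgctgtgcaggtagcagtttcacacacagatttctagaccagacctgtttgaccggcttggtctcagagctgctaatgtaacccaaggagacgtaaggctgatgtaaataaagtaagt
The second window, chr7:80919052-80919301, has 77.6% G and C bases, 39 CpG and 3 GC boxes.
SEMA3C second start: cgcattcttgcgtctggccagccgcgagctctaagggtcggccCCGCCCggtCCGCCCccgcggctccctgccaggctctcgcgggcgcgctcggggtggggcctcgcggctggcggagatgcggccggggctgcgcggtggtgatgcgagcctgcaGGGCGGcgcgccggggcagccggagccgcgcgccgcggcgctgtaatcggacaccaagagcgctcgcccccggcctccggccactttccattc
For SEMA4B the window of the first start listed, chr15:90201080-90201329 on the plus strand, has 79.2% G and C bases, 29 CpG and 5 GC boxes. Its other 2 windows, not printed, have 72% and 54% G and C bases and 3 and 0 GC boxes.
SEMA4B first start: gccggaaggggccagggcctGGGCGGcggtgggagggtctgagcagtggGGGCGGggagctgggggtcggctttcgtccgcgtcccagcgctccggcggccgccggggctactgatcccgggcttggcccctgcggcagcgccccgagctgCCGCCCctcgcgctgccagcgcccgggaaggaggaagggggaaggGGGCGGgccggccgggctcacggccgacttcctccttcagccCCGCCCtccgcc
Such windows were at hand for 8 of the 10 genes, not for NRP1 and SEMA3A. Of these 14 windows, 10 have a GC box (71.4%), as do 42.6% of all 35116 windows. Gene-level TPM do not separate starts, so these windows cannot be tied to a difference in level.

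SEMA4D, the class 4 ligand of PLXNB1, was close to 1 TPM in both genotypes, at 1.04 ± 0.343 TPM in knockout lines and 1.06 ± 0.129 TPM in RAC1-positive lines (SD, n = 3). The log2 difference was -0.02 (SE 0.24, limma adjusted p = 0.982). It had 1.16 and 1.63 TPM in sgRAC1 clone 1, 0.607 and 0.815 TPM in sgRAC1 clone 2, and 1.04 and 0.982 TPM in sgRAC1 clone 3. It had 1.02 and 1.29 TPM in sgNTC clone 1, 0.722 and 1.11 TPM in sgNTC clone 2, and 0.721 and 1.505 TPM in the parental line. The highest and the lowest library were both knockout libraries, of clones 1 and 2. SEMA4D lies at chr9:89360787-89498130 on the minus strand and SEMA3F at chr3:50155045-50189075 on the plus strand. SEMA3F, a secreted ligand of NRP2 first cloned from a region lost in lung cancer, lay between 0 and 0.497 TPM in the knockout libraries and between 0 and 0.312 TPM in the RAC1-positive libraries. The means were 0.149 ± 0.0934 TPM in knockout lines and 0.133 ± 0.0824 TPM in RAC1-positive lines (SD, n = 3), a level too low for the test.

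Plexin RNA was low throughout. PLXNB2, the most abundant plexin, at chr22:50274979-50307627 on the minus strand, had 2.01 and 1.12 TPM in sgRAC1 clone 1, 1.42 and 1.17 TPM in sgRAC1 clone 2, and 2.28 and 1.52 TPM in sgRAC1 clone 3. It had 0.747 and 1.54 TPM in sgNTC clone 1, 0 and 2.16 TPM in sgNTC clone 2, and 1.73 and 2.40 TPM in the parental line. In batch 1 the knockout libraries ran from 1.42 to 2.28 TPM and the RAC1-positive libraries from 0 to 1.73 TPM. In batch 2 they ran from 1.12 to 1.52 TPM and from 1.54 to 2.40 TPM. Its log2 difference was 0.18 (SE 0.27, limma adjusted p = 0.796), made up of 0.78 in batch 1 and -0.41 in batch 2, and without sgNTC clone 2 replicate 1 it was -0.09. The change of its difference between batches was -1.19 (limma adjusted p = 0.912).

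PLXNA1, the A-type plexin that pairs with NRP1 for SEMA3A, averaged 0.395 ± 0.252 TPM in knockout lines and 0.680 ± 0.127 TPM in RAC1-positive lines (SD, n = 3). It ran from 0.117 to 0.788 TPM over knockout libraries and from 0.429 to 1.06 TPM over RAC1-positive libraries, so the genotypes overlapped, and sgRAC1 clone 1 held the lowest line mean. The authors' deposited table gives it a log2 fold change of -0.76 with an adjusted p of 0.355. PLXNA2, another A-type plexin, averaged 0.311 ± 0.222 TPM in knockout lines and 0.233 ± 0.0933 TPM in RAC1-positive lines, with 0.0662 to 0.712 TPM over knockout libraries and 0 to 0.644 TPM over RAC1-positive libraries. The authors' deposited table gives PLXNA2 a log2 fold change of 0.21 with an adjusted p of 0.908. PLXNB1, which relays SEMA4D to RhoA through ARHGEF11 and ARHGEF12, averaged 0.130 ± 0.0461 TPM in knockout lines and 0.1003 ± 0.0492 TPM in RAC1-positive lines. Its libraries ran from 0 to 0.296 TPM in knockout lines and from 0 to 0.180 TPM in RAC1-positive lines. PLXNA1 lies at chr3:126988594-127037392, PLXNA2 at chr1:208022242-208244320 and PLXNB1 at chr3:48403854-48430051. None of these 3 reached the 1 TPM mean that the test required.

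NRP1, the co-receptor of SEMA3A that also binds VEGF proteins, lies at chr10:33177492-33336262 on the minus strand, under an antisense gene whose reads could not be told apart if counting ignored strand. It had 62.0 and 48.6 TPM in sgRAC1 clone 1, 47.2 and 43.8 TPM in sgRAC1 clone 2, and 37.2 and 57.6 TPM in sgRAC1 clone 3. It had 31.3 and 26.0 TPM in sgNTC clone 1, 40.8 and 36.5 TPM in sgNTC clone 2, and 33.4 and 34.6 TPM in the parental line. The only overlap came from sgNTC clone 2 replicate 1, at 40.8 TPM above the lowest knockout library. Without it all 6 knockout libraries were above all 5 others, and 4.83% of tested genes were apart in this way in either direction. In the order of line means sgRAC1 clone 1 and clone 3 overlapped, as did clone 3 and clone 2, although both clone 1 libraries lay above both clone 2 libraries, while clone 2 over sgNTC clone 2, sgNTC clone 2 over the parental line and the parental line over sgNTC clone 1 had libraries apart. The means were 49.4 ± 5.18 TPM in knockout lines and 33.8 ± 5.03 TPM in RAC1-positive lines (SD, n = 3), a ratio of 1.46. The log2 difference was 0.53 (SE 0.14, limma adjusted p = 0.232), at 0.44 in batch 1 and 0.62 in batch 2. The authors' deposited table gives a log2 fold change of 0.56 (SE 0.124) with an adjusted p of 0.00026. A limma fit over all 12 libraries with line as a random block, which called 2.12% of tested genes, gave NRP1 an adjusted p of 0.0657. The correlation within lines in that fit was -0.0299. The fit therefore treated the 2 libraries of a line as nearly independent, unlike the test on line means. In the same fit without sgNTC clone 2 replicate 1, chosen after seeing the data and calling 3.57% of genes, NRP1 was higher by 0.59 on the log2 scale with an adjusted p of 0.0367.

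Set against the mean of the 3 RAC1-positive lines, which all clone contrasts share, NRP1 gave log2 differences of 0.70 for sgRAC1 clone 1, 0.43 for clone 2 and 0.46 for clone 3 (SE 0.18 each). SEMA4B gave 0.26 for clone 1, 0.41 for clone 2 and 0.62 for clone 3 (SE 0.20 each). SEMA3A gave 0.30 for clone 1, 1.30 for clone 2 and 0.91 for clone 3 (SE 0.28 each). SEMA3C gave -0.12 for clone 1, -0.16 for clone 2 and -1.09 for clone 3 (SE 0.35 each). None of the 6 tested genes passed an adjusted p of 0.05 in limma for clone 1, 2 or 3, where 0.484%, 0.196% and 1.08% of tested genes did. Unadjusted p under 0.05 was reached by 1, 2 and 4 of the 6 genes, and by 9.10%, 7.41% and 12.4% of all tested genes. The counts for clones 2 and 3 include SEMA3A, which passed the level filter only through the knockout lines. Without sgNTC clone 2 replicate 2, SEMA3A passed in clone 2, at 1.42 and a limma adjusted p of 0.0376. That setting called 1.07% of genes for clone 2 and left sgNTC clone 2 with only the library that stands apart, in which SEMA3A is listed at 0. The error of these contrasts comes from the pairs of libraries within lines.

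**Figure D3:**
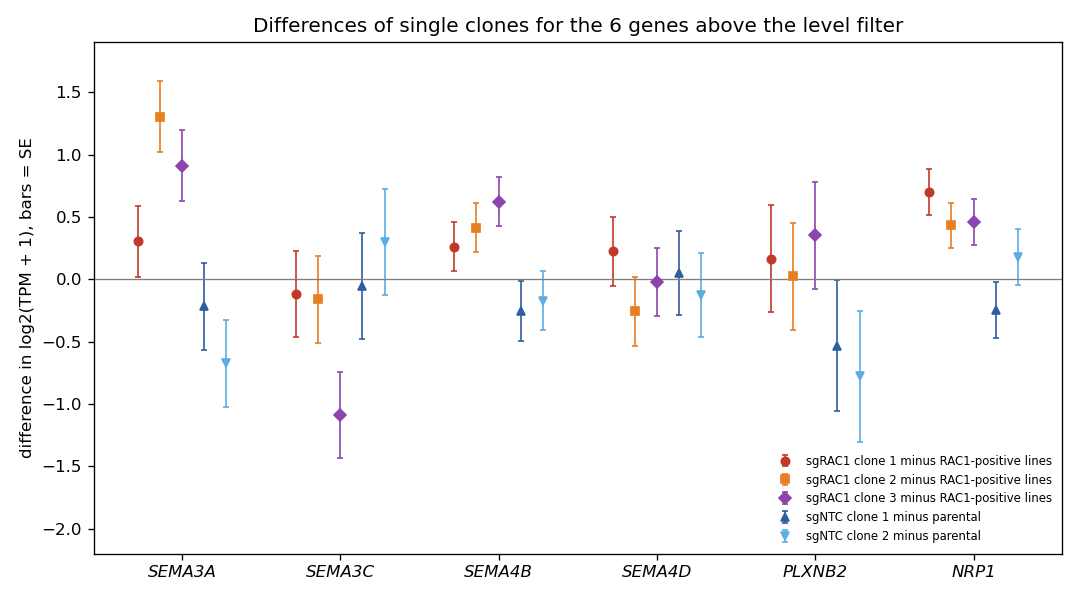
Log2(TPM + 1) difference of each knockout clone from the mean of the RAC1-positive lines for the 6 tested genes, and of each sgNTC clone from the parental line, with bars of 1 standard error from the limma fit. NRP1, SEMA4B and SEMA3A lie above 0 in all 3 clones, and SEMA3C lies lowest in clone 3.

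Differences among RAC1-positive lines give a scale for these values. None of the 6 genes passed in sgNTC clone 1 or sgNTC clone 2 against the parental line (limma, 0% and 0.0115% of genes called), and none had an unadjusted p under 0.05, where 2.93% and 6.70% of genes did. The widest log2 differences there were -0.78 for PLXNB2 (SE 0.53) and -0.67 for SEMA3A (SE 0.35), both in sgNTC clone 2, whose first library listed both genes at 0. For NRP1 they were -0.25 in sgNTC clone 1 and 0.18 in sgNTC clone 2 (SE 0.23 each). Among the knockout clones, clone 1, of guide sgRAC1_1, minus clones 2 and 3, of guide sgRAC1_2, gave SEMA3A a log2 difference of -0.80 (SE 0.30, limma adjusted p = 1). None of the 6 genes passed that contrast, where 0.0864% of genes did, and SEMA3A alone had an unadjusted p under 0.05, where 3.94% did. Guide and clone cannot be told apart. Clone 3 minus clone 2 gave SEMA3C a log2 difference of -0.93 (limma adjusted p = 1). None of the 6 genes passed it or had an unadjusted p under 0.05, where 0% and 3.32% of all genes did. A test of any difference among the 6 lines called 0 of the 6 genes (limma F test), beside 0.322% of all genes. NRP1 and SEMA3A had an unadjusted p under 0.05 in it, as did 8.55% of all genes, and SEMA3A had passed the level filter only through the knockout lines.

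SEMA3C, SEMA3A and 2 further class 3 genes lie in a row on the long arm of chromosome 7, all on the minus strand (GENCODE release 29, GRCh38). SEMA3C is at chr7:80742538-80922359, SEMA3E 2.44 Mb further on at chr7:83363238-83649113, SEMA3A at chr7:83955777-84492724 after a gap of 0.307 Mb, and SEMA3D at chr7:84995553-85186855. SEMA3E, a ligand that binds PLXND1 directly without a neuropilin, is not one of the 10 genes but lies between them and passed the filter through its RAC1-positive lines. It had 0.325 and 0.710 TPM in sgRAC1 clone 1, 0.340 and 0.0721 TPM in sgRAC1 clone 2, and 0.146 and 0.0569 TPM in sgRAC1 clone 3. It had 6.15 and 4.16 TPM in sgNTC clone 1, 4.86 and 3.03 TPM in sgNTC clone 2, and 1.80 and 1.46 TPM in the parental line. All 6 knockout libraries were below all 6 RAC1-positive libraries, and 2.86% of tested genes were apart in this way in either direction. The mean was 0.275 ± 0.217 TPM in knockout lines and 3.58 ± 1.79 TPM in RAC1-positive lines (SD, n = 3), so knockout lines held 7.69% of the RAC1-positive level. The log2 difference was -1.76 (SE 0.35, limma adjusted p = 0.156) on line means. It fell past the threshold in the fit over 12 libraries, which treated the libraries of a line as nearly independent (limma adjusted p = 0.00728). That fit called 2.12% of tested genes. Against the RAC1-positive lines, sgRAC1 clones 1, 2 and 3 gave -1.50, -1.83 and -1.95 (limma adjusted p = 0.0755, 0.0615 and 0.0180). Only clone 3 passed, though the differences were close, and 0.484%, 0.196% and 1.08% of tested genes were called in these contrasts. The authors' deposited table gives a log2 fold change of -3.63 with an adjusted p of 5.44e-11. Among RAC1-positive lines the log2 difference from the parental line was 1.21 in sgNTC clone 1 and 0.89 in sgNTC clone 2 (limma adjusted p = 1 and 0.693). SEMA3D stayed below the filter, at 0.139 TPM on average in knockout lines and 0.473 TPM in RAC1-positive lines. Neighbouring genes above the filter outside the row, GNAI1 and KIAA1324L, had log2 differences of -0.16 and 0.05.

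**Figure D4:**
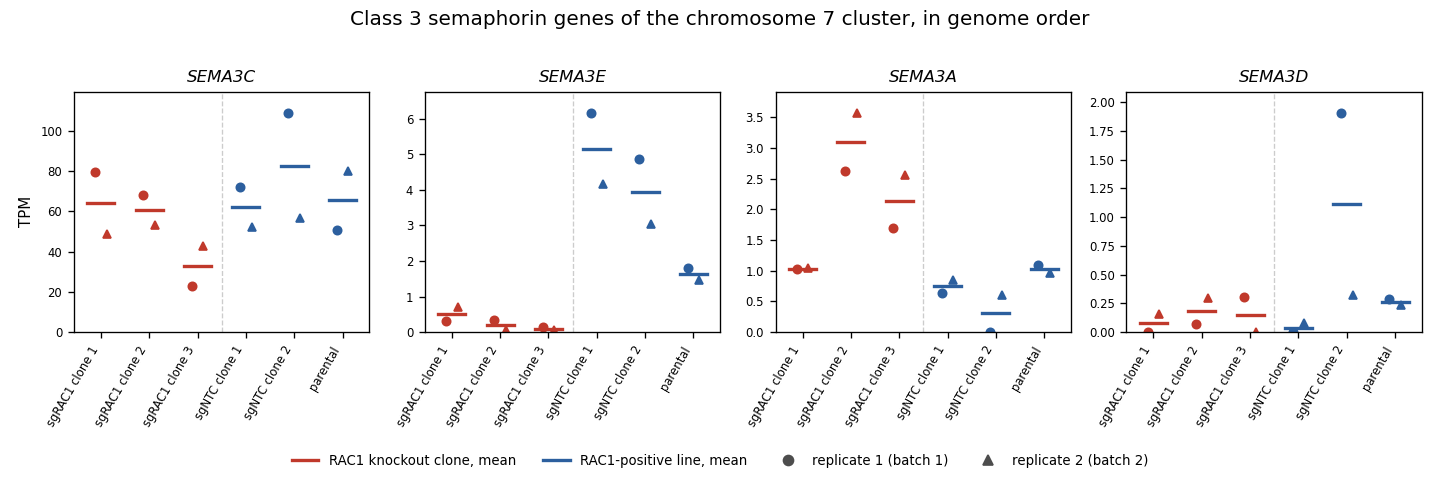
TPM of the class 3 genes of the chromosome 7 row in each library, knockout lines left of RAC1-positive lines, with a bar for each line mean and circles and triangles for batches 1 and 2. SEMA3E lies lower in all knockout libraries, SEMA3A line means lie higher, and SEMA3C overlaps.

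Of the 21 other family genes, 3 passed the level filter. Besides SEMA3E these were SEMA4F, at 3.04 ± 0.436 TPM in knockout lines and 2.01 ± 0.494 TPM in RAC1-positive lines (log2 difference 0.45, limma adjusted p = 0.411), and PLXNC1, the receptor of SEMA7A, at 1.07 ± 0.174 TPM in knockout lines and 0.909 ± 0.0735 TPM in RAC1-positive lines (log2 difference 0.12, limma adjusted p = 0.840). The other 18, NRP2 and PLXND1 among them, were below the filter.

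Partners of the pathway were described by lists. Of 12 plexin co-receptors and vascular ligands, 5 passed the filter and 0 were called; ITGB1, a partner of several plexins, had 942 ± 71.7 TPM in knockout lines and 757 ± 119 TPM in RAC1-positive lines (0.32, limma adjusted p = 0.350). Of 18 GTPases, exchange factors and GTPase-activating proteins at the plexin tail 13 passed, and only RAC1 was called; RHOA had 590 ± 43.9 TPM in knockout lines and 490 ± 21.4 TPM in RAC1-positive lines (0.27, limma adjusted p = 0.260). Of 22 cytoplasmic effectors 17 passed and 0 were called. The smallest p was that of CFL1, with 280 ± 20.6 TPM in knockout lines and 223 ± 19.5 TPM in RAC1-positive lines (0.35, limma adjusted p = 0.246). Of the 3 with the smallest p, DPYSL2, the CRMP2 protein that carries SEMA3A signals to microtubules, had the largest log2 difference. It had 88.1 ± 20.7 TPM in knockout lines and 57.0 ± 4.18 TPM in RAC1-positive lines (0.60, limma adjusted p = 0.254). Of 7 proteases that process semaphorins 4 passed and 0 were called. The same test called 0.00576% of all tested genes, RAC1 alone, so these counts say little about the lists. Median log2 differences of these lists were 0.28, 0.15, 0.07 and 0.05, beside 0.02 for all genes. The authors' deposited comparison tested 6, 16, 19 and 6 genes of these lists, in the same order. Past an adjusted p of 0.05, ITGB1 was the 1 co-receptor, and it was higher. At the plexin tail RHOA was higher, and RAP1B and the knocked-out RAC1 itself were lower. Of the effectors 3 were higher (DPYSL2, PAK1 and CDK5), and of the proteases 0 passed. Over all genes in that comparison 9.74% passed, 5.68% higher and 4.06% lower. Whether the lists differ from that share was not tested.

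Over the 12 libraries the level of SEMA3A was most like that of S100A11 (Pearson r = 0.924), FAM84B (0.920) and TMSB15B (0.915). NRP1 was most like CPD (0.944), CUL4B (0.942) and ERAP1 (0.935), and SEMA4B most like NUDT14 (0.964) and CTSB (0.938). These were among the highest of 17367 genes and the libraries share genotype and batch, so r is a description of likeness. Over the 6 line means the 3 most alike genes were other ones for SEMA3A and NRP1, while CTSB was again among those most like SEMA4B. Among the 6 tested genes themselves, the highest r was that of SEMA3A with SEMA4B (0.753) and the lowest that of SEMA3C with SEMA4B (-0.699). The r of NRP1 with SEMA3A was 0.380. Shared genotype and batch enter these r as well.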

How the data were processed

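RNA was sequenced from 6 DU145 lines, 2 libraries each, in 12 libraries. Reads were handled with STAR 2.6.1d, bcl2fastq and DESeq2 on GRCh38, per the submitters' processing notes. The counting tool, strand setting and annotation behind the values are not stated. The authors deposited TPM of 56832 genes per library, so depth and counting error are unknown. That table also carries, for 15140 genes and per the file headers, a comparison computed by the authors with the columns of DESeq2: mean signal (normalised counts), log2 fold change and its error, Wald score, raw p-value and adjusted p-value. Its set-up was not given in the sources used here either.

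Line means of log2(TPM + 1) were compared with limma 3.58.1 in R 4.3.3, 3 knockout lines against 3 RAC1-positive lines, with Benjamini-Hochberg adjustment at 0.05 over 17367 genes of at least 1 TPM on average in either genotype. Contrasts of single lines used a limma fit of all 12 libraries. The scripts were tested on simulated data. An exact permutation test of 3 lines against 3 cannot go below p = 0.1. P-values measure the spread between these samples, and whether replicates of a line came from separate cultures is given only as biological replicates in the labels. The genes and lists were chosen with earlier results of these data known. Named genes were all 10, the other family genes above the filter, and per pathway list those with the smallest p. Values of some genes the rules cover are not reported here.

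Replicate numbers equal batch numbers per the labels, so they pair libraries. Deviations of same-numbered libraries correlated at -0.126 to 0.296 (median 0.0261) in 15 pairs of lines, over 0.1 in 2 of them. No libraries among 66 pairs were identical. Alternatives were other pseudocounts, filters and scaling, libraries or lines left out, single batches, the replicate block, and line as a random block. Gene positions are from GENCODE release 29 and promoter windows from RefSeq, GRCh38.p14, by symbol.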

Additional observations from a re-analysis of the deposited data

Results flagged for a closer look

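SEMA3F stood at 0.497 TPM in sgRAC1 clone 3 replicate 2, far from the other knockout libraries, of which the nearest was 0.177 TPM. Its gap was 0.643 of the group's range. Of 22 groups of 6 libraries looked at, this was the 1 with such a gap, and chance gives such a gap in about 5% of groups.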

How the results depend on the processing

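With the line mean as the unit, 0 of the 6 genes were called under the pseudocounts, filters, scaling, batches and left-out libraries and lines tried. Over all tested genes these 26 settings called 0 to 33, with 0 in 18 of them, so 0 of the 6 says little about these genes. The authors' comparison calls 3 of the 8 it tested, beside 9.74% of all its genes. The fit over 12 libraries with line as a random block calls 0, beside 2.12% of all genes. Without sgNTC clone 2 replicate 1, a setting chosen after seeing the data, that fit calls 1 (NRP1), beside 3.57%. Leaving out single libraries gave 0 to 1 called genes for single knockout clones (SEMA3A in clone 2) and 0 to 1 for sgNTC clones against the parental line (PLXNB2 at -1.61, adjusted p = 0.0444, in limma), each without sgNTC clone 2 replicate 2. That setting called 1.07% of all genes for clone 2 and 10.5% (1829 genes, against 2) for sgNTC clone 2, and left that line with only the library that stands apart, where both genes are listed at 0. With the replicate block the pairing changed no call: in the fit over 12 libraries NRP1 had an adjusted p of 0.0881 with the block and 0.0657 without it, SEMA3E 0.0123 and 0.00728, and the F test over lines called 0 of the 6 genes. The count of called genes over the whole table was 369 without and 320 with the block. The correlation within lines was -0.0299 without and 0.0156 with the block. Both fits therefore treated the libraries of a line as nearly independent.

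The log2 differences kept their direction under every alternative tried for NRP1 (0.42 to 0.63), SEMA3A (0.31 to 1.65), SEMA4B (0.33 to 0.53) and SEMA3C (-0.62 to -0.14), and for SEMA3E (-3.37 to -0.68). SEMA4D, at -0.02, turned positive in batch 1 alone (0.0801) and without the line sgRAC1 clone 2 (0.101) or the line sgNTC clone 1 (0.0190), and ran from -0.109 to 0.0712 over left-out libraries. PLXNB2, at 0.18, turned negative without sgNTC clone 2 replicate 1, ran from -0.0947 to 0.458 over left-out libraries, and was -0.0517 in the random block fit without that library and -0.41 in batch 2 alone. Over the 6 line means in place of 12 libraries the highest r was 0.991 for SEMA3A, 0.998 for NRP1 and 0.998 for SEMA4B. The cause was not tested. A line left with 1 library was assumed to vary like the others. TPM keep no depth, so the precision of genes below 1 TPM is unknown.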
